A study of Mus musculus with 16 samples.

Results

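Transcriptomes from the medial prefrontal cortex (mPFC) were compared between adult mice heterozygous for Arid1b (HT) and wild-type mice (WT) after early fluoxetine treatment (Flx) of both genotypes. The comparison was made across all genes and used the 8 samples labelled HT-Flx and WT-Flx, 4 male mice each, of the 16 samples in the series. HT mice carried 1 copy of a constitutive, protein-truncating mutation in exon 5 of Arid1b, made with CRISPR on the C57BL/6N background, and were bred from HT fathers and WT mothers. WT mice came from the same kind of cross, and the labels do not tie mice to litters or dams. Pups of both groups received the drug through the milk of dams that drank fluoxetine at 0.1 mg per ml in 0.2% saccharin starting on postnatal day 3 and ending at weaning on postnatal day 21, and tissue was taken at postnatal day 120. Drug treatment was thus shared by both groups, and the genotype was the difference that the labels give. The samples also differed in olfactory bulb markers, as described below. The mutant line goes back to 1 engineered allele, and the mutation is present in every cell and from conception. The other 8 mice, HT-Veh and WT-Veh, differed in that their dams drank saccharin without the drug, and they enter below only where they are named, as values, as a comparison of their own and in the test of whether the genotype difference depends on the drug.

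ARID1B is a DNA-binding subunit of the BAF (SWI/SNF) complex, which uses ATP to move nucleosomes and so alters the access of transcription factors to enhancers and promoters. ARID1A is its close paralogue and takes the same place in the complex. Loss of 1 copy of ARID1B is a frequent genetic cause of intellectual disability and autism in people. Fluoxetine blocks the serotonin transporter and raises extracellular serotonin, which acts on developing cortical circuits in the postnatal period.

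Values are normalized read counts, that is, estimated read counts per gene divided by a scaling factor for each sample. Their totals per sample lie close together as a result of that scaling, and the sequencing depth is unknown. Log2 values correlated across genes with r from 0.971 to 0.982 between mice of 1 group and from 0.967 to 0.982 between mice of different groups. Values are given below in the order of replicates 1 to 4. Differences are HT-Flx minus WT-Flx on the log2(normalized read count + 1) scale given as the value ± standard error (n = 4 per group), and unless another test is named, p-values are two-sided and come from limma, with Benjamini-Hochberg adjustment over 16788 genes with a threshold of 0.05. Each sample was 1 mouse. Named genes are those of the naming rules given with the methods unless they are said to have been chosen after their values were seen.

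Some WT-Flx samples stood apart from the rest. A score for olfactory bulb, the mean log2(normalized read count + 1) of 10 genes of bulb projection neurons and interneurons, was 7.27, 8.03, 5.36 and 9.15 in WT-Flx, against 5.02, 5.04, 4.45 and 5.13 in HT-Flx. Replicates 4, 2 and 1 of WT-Flx were above every HT-Flx sample by more than the range of the HT-Flx samples, and replicate 3 was just above them. The summed level of the 10 genes was 3576, 6126, 1357 and 13440 in WT-Flx and 1103, 1254, 1245 and 1241 in HT-Flx, and of its genes Barhl2 was listed at 0 in HT-Flx replicates 2 and 3 and Eomes in HT-Flx replicate 3. Markers of cortical glutamatergic neurons, for which the tissue is labelled, were present in all samples, with Slc17a7, the vesicular glutamate transporter of cortical neurons, at 37625, 43463, 40979 and 42738 in HT-Flx and 41966, 33589, 37178 and 33490 in WT-Flx. The first principal component held 26.7% of the variance and placed WT-Flx replicates 1 and 4 at the far end from HT-Flx, with WT-Flx replicate 3 among the HT-Flx samples. In bulk tissue, more cells of a type and more RNA per cell cannot be told apart.

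Arid1b itself (chromosome 17, GRCm38 chr17:4994332-5347656, plus strand) was lower in HT-Flx. Its normalized read counts were 1669, 1661, 1671 and 1545 in HT-Flx and 1902, 2433, 2256 and 2047 in WT-Flx, so the highest HT-Flx sample lay below the lowest WT-Flx sample. The mean of the HT-Flx samples was 75.8% of that of WT-Flx, a difference of -0.39 ± 0.10. An exact permutation test on this single gene gave p = 0.0286 (two-sided), the smallest p that 4 mice against 4 allow. Across all genes the unadjusted p was 0.00152 and the adjusted p 0.289, which did not pass. In vehicle mice the values were 2005, 1753, 1802 and 1619 in HT-Veh and 1787, 2453, 2831 and 2401 in WT-Veh, a difference of -0.38 ± 0.13, with WT-Veh replicate 1 inside the HT-Veh range.

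Over the whole transcriptome, 7 of 16788 genes passed the adjusted threshold, 0.0417% of those tested. Of these, 3 were higher in HT-Flx (Tmem181b-ps, Tmem181c-ps and Gm49601) and 4 were lower (Gm38226, Gm38317, Gm48583 and AC123659.1). Only Gm49601 is annotated as protein-coding, although 86.8% of the genes tested are. At an unadjusted p under 0.05 there were 936 genes higher in HT-Flx (5.58%) and 818 lower (4.87%). The samples of the groups did not overlap for 454 genes higher in HT-Flx (2.7%) and 525 lower (3.13%), and these shares are the background against which the counts below are read. Of all genes, 8663 were on the higher and 8125 on the lower side, and the median difference was 0.0081.

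A feature shared by the 7 genes, which the test did not use, is that much of their sequence is found in other genes. Each gene's transcripts were divided into all overlapping 31-base words, the length that Salmon uses by default to place reads, and the share of words also present in transcripts of another gene was counted. This share ran from 59.9% for Tmem181b-ps to 100% for Gm48583, with a median of 1.66% over all genes tested, and only 5.4% of those genes reached 50%. Salmon divides reads among transcripts that match equally well, so the values of these 7 genes and of their partners are uncertain. Among the 47 genes with an unadjusted p under 0.001, 15 had a share of at least 50%. When the 15873 genes under 50% were adjusted alone, none passed (smallest adjusted p = 0.189, with 1635 genes at an unadjusted p under 0.05), all 7 being outside this set. The number of calls also changed when 1 mouse was left out. Without WT-Flx replicate 1, 2 or 4 no gene passed, with 1859, 1728 and 1115 genes at an unadjusted p under 0.05. Without WT-Flx replicate 3 there were 23 calls, 3 of them among the 7. Genes of the bulb score were among the other calls, as given below. Leaving out any WT-Flx mouse takes the 4 genes listed at 0 in HT-Flx below the filter of 10 or more in 4 samples, so their loss was fixed in advance. Among the 7, only the 3 higher genes could keep or lose the call there on their values. Without HT-Flx replicate 3 or 4 there were 3 calls, and without HT-Flx replicate 2 there were 4, all among the 7.

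**Figure D1:**
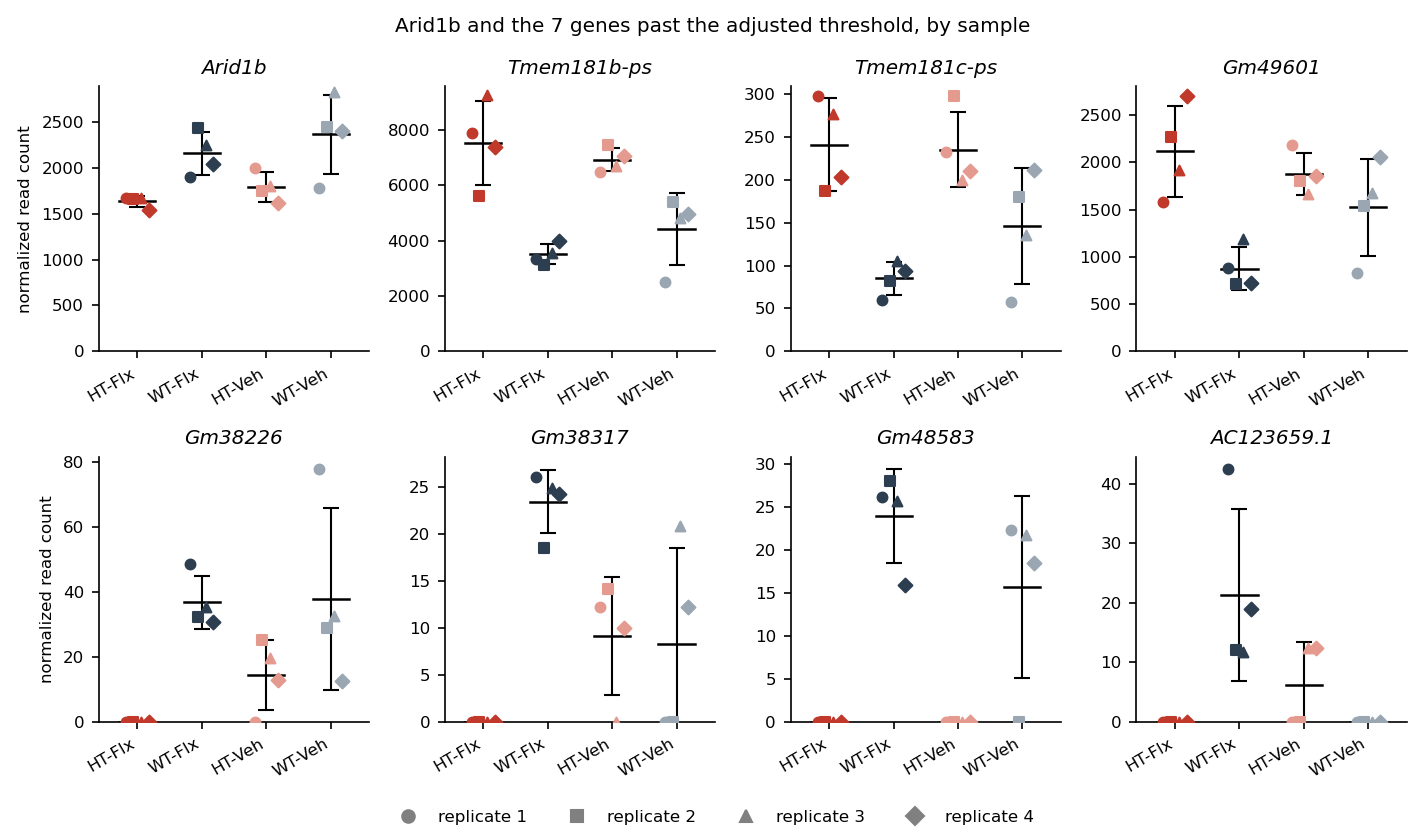
Normalized read counts of Arid1b and of the 7 genes past the adjusted threshold in HT-Flx, WT-Flx, HT-Veh and WT-Veh (y axes, linear and starting at 0). Each symbol is 1 mouse, with the shape giving the replicate number, and lines with bars are the mean ± SD of 4 mice. In all 8 panels the HT-Flx and WT-Flx symbols do not overlap, and 4 genes are listed at 0 in every HT-Flx mouse.

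Both Tmem181 genes that rose belong to a family of copies on chromosome 17, near Arid1b. Tmem181a encodes a transmembrane protein, and Tmem181b-ps and Tmem181c-ps are pseudogene copies of it. A stretch of 150 bases shows how close the copies are. It is the start of both pseudogene transcripts in GENCODE M21 and bases 122 to 271 of the Tmem181a transcript, within its coding sequence. Capitals mark the positions at which the 3 differ:
Tmem181a: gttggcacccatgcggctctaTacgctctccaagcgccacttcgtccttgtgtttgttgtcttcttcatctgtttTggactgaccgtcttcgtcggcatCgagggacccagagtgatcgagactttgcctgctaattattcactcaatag
Tmem181b-ps: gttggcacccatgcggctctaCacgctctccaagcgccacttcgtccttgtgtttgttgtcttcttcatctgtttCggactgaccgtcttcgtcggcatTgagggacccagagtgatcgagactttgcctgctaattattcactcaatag
Tmem181c-ps: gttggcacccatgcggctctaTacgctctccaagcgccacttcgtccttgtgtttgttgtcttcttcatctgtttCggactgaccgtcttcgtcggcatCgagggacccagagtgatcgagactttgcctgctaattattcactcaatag
Tmem181a and Tmem181b-ps differ at 3 of these positions and Tmem181a and Tmem181c-ps at 1. In GRCm38 the windows span, introns included, chr17:6280598-6286971 on the plus strand, chr17:6460666-6467022 on the minus strand and chr17:6632439-6639790 on the minus strand.

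Tmem181b-ps had normalized read counts of 7885, 5607, 9252 and 7382 in HT-Flx and 3348, 3132, 3569 and 3973 in WT-Flx. The lowest HT-Flx mouse was above the highest WT-Flx mouse, and the difference was 1.09 ± 0.14, adjusted p = 0.0188. Tmem181c-ps was at 298, 187, 277 and 204 against 59.9, 81.8, 105 and 94.1, again without overlap, and the difference was 1.49 ± 0.22, adjusted p = 0.0428. Tmem181a was at 4044, 3522, 3947 and 3686 against 2921, 2736, 2942 and 2967, a smaller difference of 0.39 ± 0.083 that did not pass (adjusted p = 0.289). Since reads can be divided among the copies, their sum was also taken. It was 12227, 9316, 13476 and 11272 in HT-Flx and 6328, 5950.3, 6616 and 7034 in WT-Flx, so the groups did not overlap for the sum either. With the bulb score as a covariate the differences of Tmem181b-ps and Tmem181c-ps were 1.08 and 1.34, and neither passed.

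The 4 lower genes were listed at 0 in each of the 4 HT-Flx mice and had low but nonzero values in each of the 4 WT-Flx mice. A gene at 0 in all HT-Flx mice passes the filter only with 10 or more in all 4 WT-Flx mice. The pattern of these 4 genes was thus a condition of their being tested and is not separate support for a difference. No other gene in the table was at 0 in all HT-Flx mice and at 10 or more in all WT-Flx mice, and none showed the opposite pattern. In the vehicle mice no gene was at 0 in all mice of 1 genotype and at 10 or more in all mice of the other. Because these genes are at 0 in a group, no fold change is given. Gm48583, Gm38317 and AC123659.1 are single-exon processed pseudogenes, that is, copies of a spliced messenger RNA inserted elsewhere in the genome. The sequence of Gm48583, from GENCODE M21, is shown because every base of it is found in its source gene, so no letter is in capitals:
Gm48583: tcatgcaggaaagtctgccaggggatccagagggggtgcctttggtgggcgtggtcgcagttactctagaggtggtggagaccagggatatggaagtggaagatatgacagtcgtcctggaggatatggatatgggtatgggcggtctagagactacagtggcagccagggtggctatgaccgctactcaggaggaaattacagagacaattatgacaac
Gm48583 (chr13:60641790-60642009, plus strand) matches the coding sequence of Rbm3, a cold-induced RNA-binding protein on the X chromosome, at 220 of 220 bases.

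Gm38226 (TEC, an unconfirmed transcript, chr9:98771105-98771625, plus strand) was listed at 48.7, 32.3, 35.5 and 30.9 in WT-Flx, adjusted p = 0.0018, and 93.9% of its 31-base words occur in other genes. Gm38317 (chr3:12975359-12975701, plus strand) was at 26.1, 18.5, 24.9 and 24.3 in WT-Flx (adjusted p = 0.0065) and matches the integrin gene Itgb5 at 342 of 343 bases. Gm48583 was at 26.1, 28.1, 25.7 and 15.9 (adjusted p = 0.0065) and AC123659.1 at 42.4, 12.1, 11.7 and 18.9 (adjusted p = 0.0386). In WT-Flx these are low levels, close to the filter of 10. In vehicle mice AC123659.1 was listed at 0 in all WT-Veh mice and at 0, 0, 12.4 and 12.4 in HT-Veh, whereas Gm48583 was at 0 in all HT-Veh mice and at 22.4, 0, 21.8 and 18.5 in WT-Veh. Gm38226 was at 0, 25.1, 19.7 and 12.9 in HT-Veh and 77.8, 28.9, 32.5 and 12.4 in WT-Veh, and Gm38317 at 12.2, 14.1, 0 and 10 and 0, 0, 20.9 and 12.2. In each of these genes the vehicle groups shared values of 0 or overlapped.

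The source genes of Gm48583 and Gm38317, which were chosen after their values were seen, were far from 0 in every mouse. Rbm3 was at 3714, 2953, 2848 and 3177 in HT-Flx and 3891, 3451, 3181 and 3482 in WT-Flx, and Itgb5 was at 1132, 909, 1019.8 and 936 against 1131, 918, 987 and 1119.6, so both overlapped.

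Gm49601 (chr16:18620466-18626427, minus strand) was the only protein-coding gene past the threshold. It was at 1586, 2265, 1917 and 2706 in HT-Flx and 883, 713, 1191 and 718 in WT-Flx, a difference of 1.28 ± 0.19, adjusted p = 0.0428. It lies on the same strand as Sept5, a septin of synaptic vesicles, and Gp1bb, a platelet glycoprotein, and overlaps both, with 63.5% of its 31-base words in other genes. Sept5, chosen after its values were seen, was at 21285, 20675, 22870 and 19233 in HT-Flx and 28097, 21763, 23005 and 21737 in WT-Flx, which overlap. With the bulb score as a covariate the Gm49601 difference was 0.81, unadjusted p = 0.0101.

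Genes near Arid1b were examined by position. Of 43 genes tested that lie within 5 Mb of either end of Arid1b, 6 were higher in HT-Flx without overlap of the groups and 2 were lower. Over all genes tested these shares were 2.7% and 3.13%. Of the 43, 2 passed the threshold, the Tmem181 copies described above. The median difference of these genes was -0.031. The higher genes were Pisd-ps2, Tmem181a, Tmem181b-ps, Dynlt1c, Tmem181c-ps and Rps6ka2, and the lower ones Rnaset2b and Mpc1. All except Pisd-ps2 lie on the same side of Arid1b as the Tmem181 copies. Tmem181a, Tmem181b-ps and Tmem181c-ps are copies among which reads can be divided, so they do not count as separate genes here.

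Pisd-ps2, a copy of the gene for a mitochondrial phospholipid enzyme, was at 270.3, 279.8, 223 and 263 in HT-Flx and 132, 151, 152 and 165 in WT-Flx (0.78 ± 0.14). Dynlt1c, a dynein light chain with 92.4% of its 31-base words in other genes, was at 219.6, 157, 191 and 140.4 against 121, 69.2, 103 and 102 (0.84 ± 0.21). Rnaset2b, a lysosomal ribonuclease of a duplicated pair, was at 593, 363, 446 and 361 against 695, 652, 673 and 779.9 (-0.69 ± 0.16). Mpc1, a subunit of the mitochondrial pyruvate carrier, had a small difference of -0.15 ± 0.078. For Pisd-ps2 38.5% of the 31-base words occur in other genes, for Rnaset2b 63.1% and for Mpc1 30.8%. For Tmem181a the share is 39.3% and for Rps6ka2 23.9%, so the values of all these genes are uncertain in the same way. In vehicle mice Dynlt1c was higher in HT-Veh by 0.75, Tmem181b-ps by 0.70, Tmem181c-ps by 0.82 and Tmem181a by 0.31. Pisd-ps2 and Rps6ka2 differed by only 0.10 and 0.14, Rnaset2b by -0.12 and Mpc1 by -0.08. None of these passed.

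**Figure D2:**
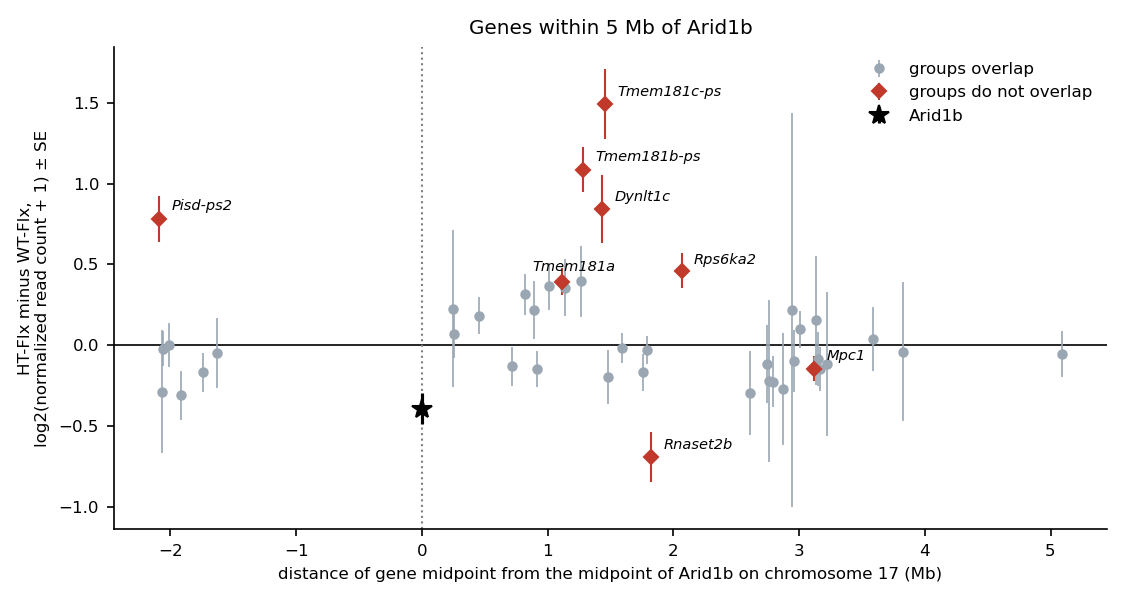
HT-Flx minus WT-Flx difference of log2(normalized read count + 1) with its SE (y axis) against distance of the gene midpoint from that of Arid1b in Mb (x axis), for Arid1b (star) and 43 tested genes within 5 Mb of its ends. Red diamonds are the 8 genes whose groups did not overlap, 6 above and 2 below 0, and grey circles are genes whose groups overlapped.

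Among protein-coding genes with a mean of at least 100 normalized read counts, the 10 with the smallest p in each direction and no overlap were examined. Of the 10 higher in HT-Flx, only Gm49601 passed the adjusted threshold. Otof encodes otoferlin, a calcium sensor for vesicle release that marks upper cortical layers. It was at 1576, 1438, 1869 and 1543 in HT-Flx and 909, 962, 1142 and 925 in WT-Flx, a difference of 0.71 ± 0.11 with an adjusted p of 0.061, just above the threshold. In the vehicle mice it was at 1416, 1769, 1582 and 1163 in HT-Veh and 655, 938, 881 and 969.9 in WT-Veh, again without overlap (0.78 ± 0.15). Rasgrf2, an exchange factor for Ras, was at 7455, 8147, 9189 and 7932 against 4082, 6084, 6273 and 4789 (0.64 ± 0.13).

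Rps6ka2, a kinase of the MAP kinase pathway near Arid1b, was at 2414, 3292, 3030.2 and 2864 in HT-Flx against 1875, 2183, 2175 and 2152 (0.46 ± 0.11). Ptpru, a receptor-type tyrosine phosphatase, was at 1281, 1184, 1197 and 1426 against 892, 1001, 998 and 882 (0.43 ± 0.10). For both genes every HT-Flx mouse was above every WT-Flx mouse. Fam53b, Gm14325 and D630045J12Rik differed by 0.93, 0.78 and 0.49, and 88.2% of the 31-base words of Gm14325 occur in other genes. Tmem181a, described above, was also among the 10. With the bulb score as a covariate the differences of Otof and Rasgrf2 were 0.47 and 0.42, smaller than without it.

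Of the 10 protein-coding genes lower in HT-Flx, none passed the adjusted threshold. Gtf3c6, a subunit of the TFIIIC factor of RNA polymerase III, was at 417, 514, 449.5 and 444 in HT-Flx and 702, 757, 754 and 699 in WT-Flx (-0.68 ± 0.11, adjusted p = 0.061). Pfdn2, a subunit of the prefoldin chaperone, was at 2026, 1763, 1736 and 1866 against 2771, 2528, 2565 and 2903 (-0.54 ± 0.09, adjusted p = 0.077). In both genes every WT-Flx mouse was above every HT-Flx mouse. In vehicle mice Gtf3c6 was at 467, 479, 557 and 425 in HT-Veh and 539, 589, 472 and 524 in WT-Veh, which overlap. In Pfdn2 26.8% of the 31-base words occur in other genes.

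Frzb, a secreted antagonist of Wnt, was at 445, 388, 499.7 and 486 against 723, 752, 669 and 920.4 (-0.75 ± 0.13). Abca8a, a lipid transporter of the ABC family, was at 165, 125, 137 and 155 against 228, 281, 289 and 397 (-1.01 ± 0.18). For both, WT-Flx replicate 4, the sample with the highest bulb score, was the highest. Bloc1s5, of a complex that forms lysosome-related organelles, differed by -0.73 ± 0.15, and Bckdhb, of branched-chain amino acid breakdown, by -0.68 ± 0.14. Svil, a membrane-bound actin-binding protein, was at 254, 224, 259 and 225 against 393, 483, 345 and 605. Rab37, a small GTPase of secretory vesicles, was at 44.3, 42.4, 37.5 and 46.2 against 97.6, 146, 95.6 and 370. Eomes, a transcription factor of bulb projection neurons, was at 9.7, 5.14, 0 and 10.4 against 149, 318, 25.3 and 857. Eomes is itself 1 of the 10 genes of the bulb score, so its order and its value with the covariate are partly set by that. In all 3 genes the WT-Flx samples were ordered as in the bulb score, replicate 4 first and replicate 3 last, and with the score as a covariate their differences were -0.40, -0.59 and -1.38, against -0.89, -1.79 and -5.12 without it.

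**Figure D3:**
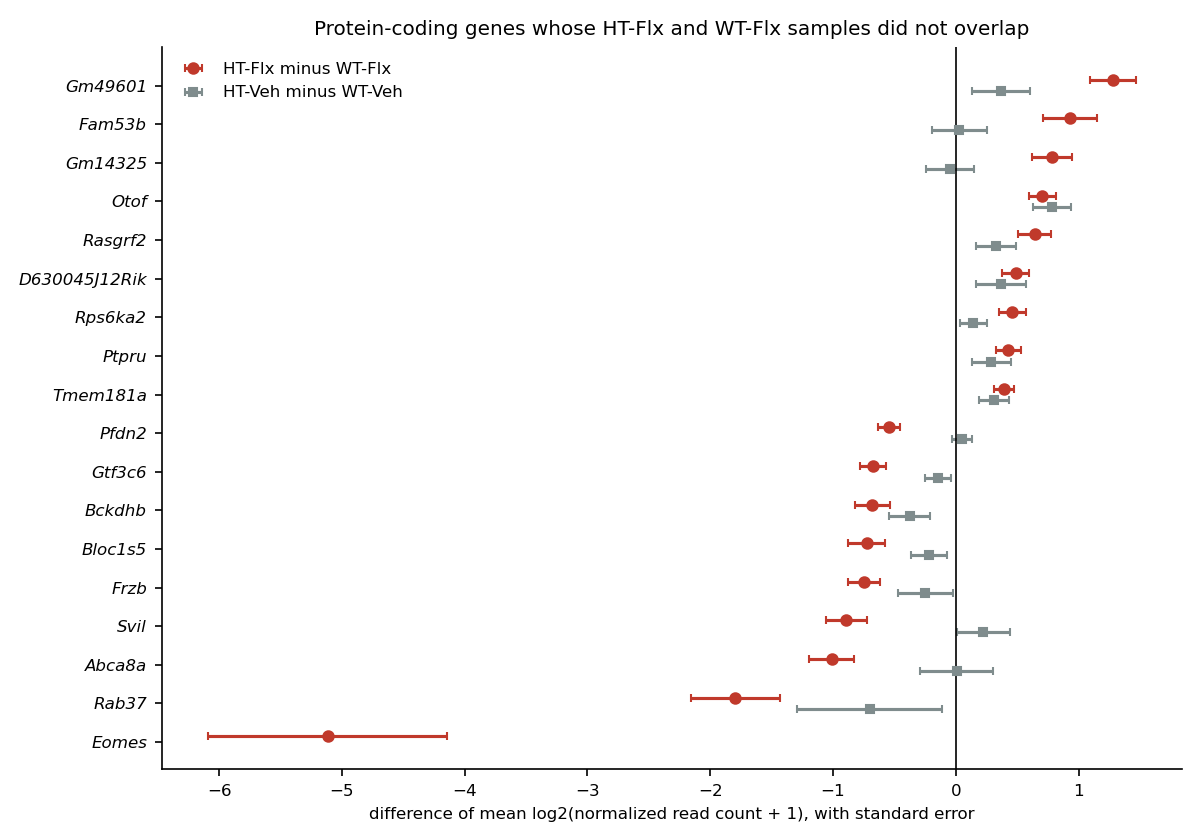
Difference between HT and WT of log2(normalized read count + 1) with its SE (x axis) for 9 higher and 9 lower protein-coding genes (y axis), in fluoxetine mice (red circles, the comparison by which the genes were chosen) and in vehicle mice (grey squares). Otof lies at 0.71 in fluoxetine and 0.78 in vehicle mice, and Pfdn2 at -0.54 and 0.05. Eomes was too low in vehicle mice to be tested and has no square.

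The olfactory bulb markers were lower in HT-Flx throughout. Of the 9 score genes that could be tested, all 9 were lower in HT-Flx at an unadjusted p under 0.05, against 4.87% of all genes. Their median difference was -2.64. The groups did not overlap for 4 of them, against 3.13% of all genes, and none passed the adjusted threshold. Cdhr1, a cadherin of mitral cells, was at 77.8, 153, 63.3 and 90 in HT-Flx and 692, 1448, 127 and 2993 in WT-Flx (-3.10 ± 0.72). Th, the rate-limiting enzyme of dopamine synthesis, was at 36.3, 47.2, 22.5 and 41.5 against 209, 339, 42.4 and 999 (-2.69 ± 0.70). Doc2g was at 89.5, 53.2, 77.9 and 84.2 against 524, 632, 99.1 and 1505. WT-Flx replicate 3 lay within the HT-Flx range for Cdhr1 and Th and just above it for Doc2g, while replicates 4, 2 and 1 were above all HT-Flx samples. Th, Cdhr1, Doc2g and Eomes, all genes of the score, were among 23 genes that passed without WT-Flx replicate 3. That mouse had the lowest score of the WT-Flx group. Across the whole transcriptome, WT-Flx replicate 4 was the highest WT-Flx sample for 47.3% of the genes lower at an unadjusted p under 0.05, for 10% of those higher and for 23.3% of all genes tested. The full order of the score, replicates 4, 2, 1 and 3, occurred in 16.6%, 0.534% and 3.71% of the same sets.

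**Figure D4:**
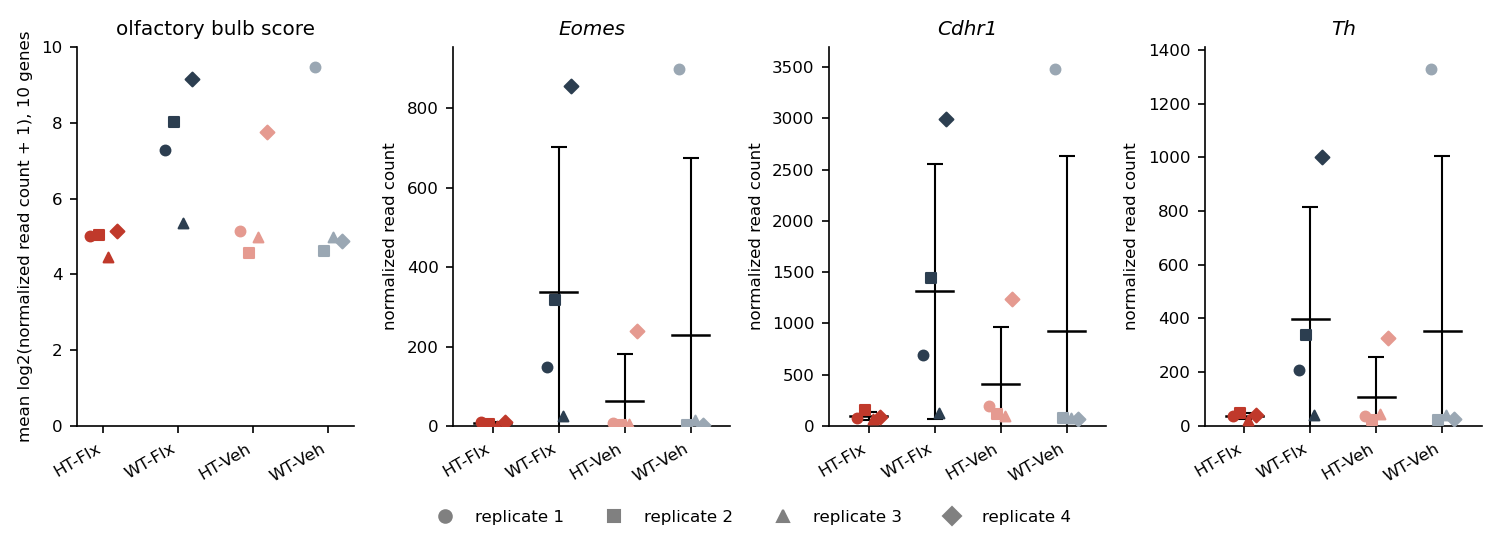
The olfactory bulb score (left, mean log2(normalized read count + 1) of 10 genes) and normalized read counts of Eomes, Cdhr1 and Th in HT-Flx, WT-Flx, HT-Veh and WT-Veh. Each symbol is 1 mouse, with lines and bars for the mean ± SD of 4 mice in the gene panels. WT-Flx replicates 4, 2 and 1 and, among vehicle mice, WT-Veh replicate 1 and HT-Veh replicate 4 have high values.

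With the bulb score as a covariate no gene passed (limma, smallest adjusted p = 0.496), and 362 genes had an unadjusted p under 0.05, against 1754 without it. Without WT-Flx replicates 1 and 4 together no gene passed either, with 1249 of 16431 genes at an unadjusted p under 0.05, and without replicates 2 and 4, the highest for the score, there were 1032 such genes and none passed. In both of these fits the genes listed at 0 in HT-Flx were below the filter and could not pass. The score differs between the groups, so its part in a difference and that of the genotype cannot be told apart within these 8 mice. The genes with the smallest p in the covariate fit were, on the higher side, Gm14288, Ankrd63, Ptpro, a receptor-type tyrosine phosphatase, Dpysl5, of the collapsin response mediator family, and Rtl5, with differences of 2.32, 0.86, 0.74, 0.82 and 0.80. On the lower side these were Lyrm7, an assembly factor of respiratory complex III, Adssl1, of AMP synthesis, Rspo1, a Wnt agonist, Cplx3, a complexin, and Gm15446, with -1.13, -1.08, -1.61, -0.84 and -1.09. In Gm14288 100% and in Gm15446 43.6% of the 31-base words occur in other genes. Without the covariate the differences on the higher side were 1.42, 0.21, -1.18, 0.074 and 0.35, that of Ptpro being of opposite sign. On the lower side they were -0.40, -0.40, -0.51, -0.36 and -0.44. Only for Gm14288 did the groups not overlap. WT-Flx replicate 3, with the lowest bulb score of its group, was the lowest WT-Flx mouse in each gene of the higher side. In each gene of the lower side it was the highest.

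Gene lists were then described by counts, with no member past the adjusted threshold in any of them. Of the 30 BAF subunits tested, 1 was higher and 4 were lower at an unadjusted p under 0.05, against 5.58% and 4.87% of all genes. Their median difference was -0.034, which turned to 0.059 with the bulb score as a covariate. Besides Arid1b, only Bcl11a did not overlap, at 2825, 2395, 2562 and 2551 in HT-Flx and 3104, 3056, 2973 and 3635 in WT-Flx (-0.30 ± 0.094). With Arid1b, the targeted gene, that made 2 of 30 lower without overlap, against 3.13% of all genes. Smarce1, a core subunit, differed by -0.44 and Bcl7a by 0.26. Of the 7 class IIa histone deacetylases and MEF2 factors tested, only Hdac4, a repressor of MEF2, had an unadjusted p under 0.05. It was at 1975, 2801, 2004 and 1955 in HT-Flx and 1343, 1624, 1577 and 1534 in WT-Flx, without overlap (0.51 ± 0.13, adjusted p = 0.289), and the difference was 0.53 with the bulb score as a covariate and 0.024 in vehicle mice. Mef2a differed by 0.02. Of 10 targets of the fragile X protein singled out by the study, 8 were higher and 2 lower, with a median of 0.074. Hdac4 and Abr were higher without overlap, 2 of 10 against 2.7% of all genes. Without WT-Flx replicates 1 and 4 together the median was -0.02, of opposite sign, and the mean log2 level of the list in WT-Flx replicate 1 stood below the other WT-Flx mice, at 11.93 against 12.09 to 12.11. The study picked these genes from its own comparison of fluoxetine with vehicle in HT whole brain, which is another tissue and another contrast. The list was chosen with earlier results of these data known, so its direction is given as a description only.

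For transmitter receptors no member passed. Of 17 ionotropic glutamate receptor subunits, 10 were higher and 7 lower with a median of 0.06 (-0.038 without WT-Flx replicates 1 and 4 together), and Grin3a, a modulatory NMDA receptor subunit, had the smallest p, at 1123, 1275, 1216 and 1325 in HT-Flx and 963, 1129, 978 and 1011 in WT-Flx (0.27 ± 0.10). Of 7 metabotropic receptors, Grm3, which couples to Gi, was the only one without overlap, at 1849, 1896, 1934 and 1909.5 against 1313, 1687, 1819 and 1289.9. Over all genes 2.7% were higher without overlap. Of 15 GABA receptor subunits, 10 were higher, with the smallest p for Gabrb1 (0.46 ± 0.15). Among 13 serotonin genes, 7 were higher and 6 lower with a median of 0.0021 (-0.014 without the same pair of mice). The receptor Htr4 was at 21.2, 46.7, 16.3 and 45.1 in HT-Flx and 5.03, 9.93, 15.9 and 18.8 in WT-Flx (1.31 ± 0.47) with HT-Flx replicate 3 below WT-Flx replicate 4, and the receptors Htr7 and Htr6 differed by 0.37 and 0.37. In vehicle mice the median of the ionotropic glutamate list was 0.13.

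Of 31 synaptic adhesion and scaffold genes, 22 were higher and 9 lower, and 7 and 2 of these had an unadjusted p under 0.05, with a median of 0.12. Shank2, a postsynaptic scaffold, was at 7761, 8375, 9491 and 7993 in HT-Flx and 5189, 5931, 7677 and 6169.5 in WT-Flx (0.44 ± 0.12), and Dlgap2, which binds it to PSD-95, was at 2147, 2327, 2337 and 2372 against 1328, 1946, 2121 and 1451. In neither gene did the groups overlap, and 3 of 31 members were higher without overlap, against 2.7% of all genes. With the bulb score as a covariate 0 members had an unadjusted p under 0.05 in either direction. Without WT-Flx replicates 1 and 4 together the median was 0.047. Gphn, the scaffold of inhibitory synapses, chosen after its values were seen, was the only member without overlap in the lower direction (-0.24 ± 0.091).

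Among 36 Wnt pathway genes, 3 were lower without overlap, against 3.13% of all genes: Frzb, Lgr5, a receptor for R-spondins, and Rspo3, an R-spondin. Lgr5 was at 54.1, 65.2, 67.6 and 73 in HT-Flx and 179, 646, 111 and 1106 in WT-Flx, with replicate 4 highest, and its difference of -2.40 became -0.17 with the bulb score as a covariate. Rspo3, chosen after its values were seen, differed by -0.61 ± 0.21. Of 20 immediate early genes, 11 were higher and 9 lower, a median of 0.027, which turned to -0.24 with the bulb score as a covariate and to -0.27 without WT-Flx replicates 1 and 4 together. Nr4a2, a nuclear receptor among them, was lower without overlap, at 216, 381, 191 and 345 in HT-Flx and 535, 534, 517 and 423 in WT-Flx (-0.88 ± 0.21). It was 1 of 20, against 3.13% of all genes. Egr3, a zinc finger factor, was at 3295, 8498, 4764 and 4792 against 2424, 3338, 4004 and 3226 (0.65 ± 0.24), with HT-Flx replicate 2 above all other mice. The 19 circadian genes had a median of 0.074 that turned to -0.054 with the covariate and to -0.031 without WT-Flx replicates 1 and 4. Of these, Tef and Npas2 were higher without overlap (0.35 ± 0.091 and 0.33 ± 0.12), 2 of 19 against 2.7% of all genes. Of 22 cholesterol synthesis enzymes, 18 were higher and 4 lower, a median of 0.088, while in vehicle mice the median was -0.17.

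Genes of energy metabolism and translation had medians below 0 that turned with the samples used. Of 76 nuclear-encoded subunits of the respiratory chain and ATP synthase, 49 were lower and 27 higher, and 5 did not overlap in the lower direction, against 3.13% of all genes, with a median of -0.048. Ndufa12, of complex I, was at 1482, 1267, 1344 and 1493 in HT-Flx and 2244, 1805, 1739 and 1895 in WT-Flx (-0.46 ± 0.11). Of 79 cytoplasmic ribosomal proteins, 49 were lower with a median of -0.063, among them Rpl30, at 2217, 1939, 1890.4 and 2027 against 2862, 2446, 2472 and 3074, and Rpl23, at 3685, 2939.6, 2943 and 3009 against 4813, 3959.8, 3750.3 and 4798. Ribosomal protein genes have many processed copies, and 31.8% of the 31-base words of Rpl30 occur in other genes. Without WT-Flx replicates 1 and 4 together the median of the ribosomal proteins was 0.13, above 0 (with the bulb score as a covariate 0.051), and that of the respiratory chain list 0.12. Of 78 mitochondrial ribosomal proteins, 54 were lower, with a median of -0.088 that turned to 0.02 without the same pair of mice. The difference of Mrpl51 was -0.59 ± 0.13. In summed level WT-Flx replicate 1 was the highest of all mice for each of these lists. For the respiratory chain list it was at 241870, against 172700 to 195250 in the other WT-Flx mice. For cytoplasmic ribosomal proteins it was at 292990 against 207050 to 252350, and for mitochondrial ones at 56917 against 42549 to 46807.

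Of 12 markers of upper-layer projection neurons, 8 were higher and 4 lower. Their median was 0.13, which was -0.033, of opposite sign, with the bulb score as a covariate. Otof, Rasgrf2 and Wfs1 of this list were higher without overlap, 3 of 12 against 2.7% of all genes. Wfs1, an endoplasmic reticulum protein of upper-layer neurons, was at 3889, 5514, 4153 and 3606 in HT-Flx and 3417, 2804, 2861 and 3373 in WT-Flx (0.45 ± 0.13). Deep-layer markers had a median of -0.14, which turned to 0.22 with the covariate. Pcp4, a calmodulin regulator, was lower without overlap (-0.54 ± 0.14), 1 of 13 against 3.13% of all genes. Among 19 markers of GABAergic interneurons, 16 were lower, with a median of -0.24. The transcription factors Dlx5, Dlx6 and Dlx2 were among them, at -1.16, -0.82 and -0.97, and bulb interneurons express these genes as well. With the bulb score as a covariate the list median was 0.07, and its part in the result was not tested further. Without overlap, 3 of the 19 were lower, against 3.13% of all genes, and 1 was higher, against 2.7%. The higher one was Lhx6, a factor of medial ganglionic eminence interneurons chosen after its values were seen (0.40 ± 0.14). Oligodendrocyte and myelin genes were lower for 17 of 18 markers, a median of -0.18, and striatal markers for 11 of 13, a median of -0.41. The summed levels overlapped between the groups, at 129960, 112330, 74694 and 85291 for oligodendrocyte genes in HT-Flx and 103490, 122230, 121850 and 107120 in WT-Flx, and at 17820, 16947, 9931 and 11747 for striatal genes against 19038, 19618, 13435 and 12443. Astrocyte, microglia, vascular and meningeal markers had medians of -0.066, -0.015, 0.02 and -0.15, interferon genes 0.035, general cortical glutamatergic markers 0.19, bulb granule and periglomerular markers -1.05 and migrating neuroblast markers -0.37. With the covariate the last 3 medians turned to -0.044, 0.32 and 0.30, those of microglia, vascular and interferon genes to 0.057, -0.089 and -0.012, and 4 tested bulb granule and periglomerular markers are themselves genes of the score. Without WT-Flx replicates 1 and 4 together the microglia, vascular and meningeal medians turned to 0.065, -0.07 and 0.0056.

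**Figure D5:**
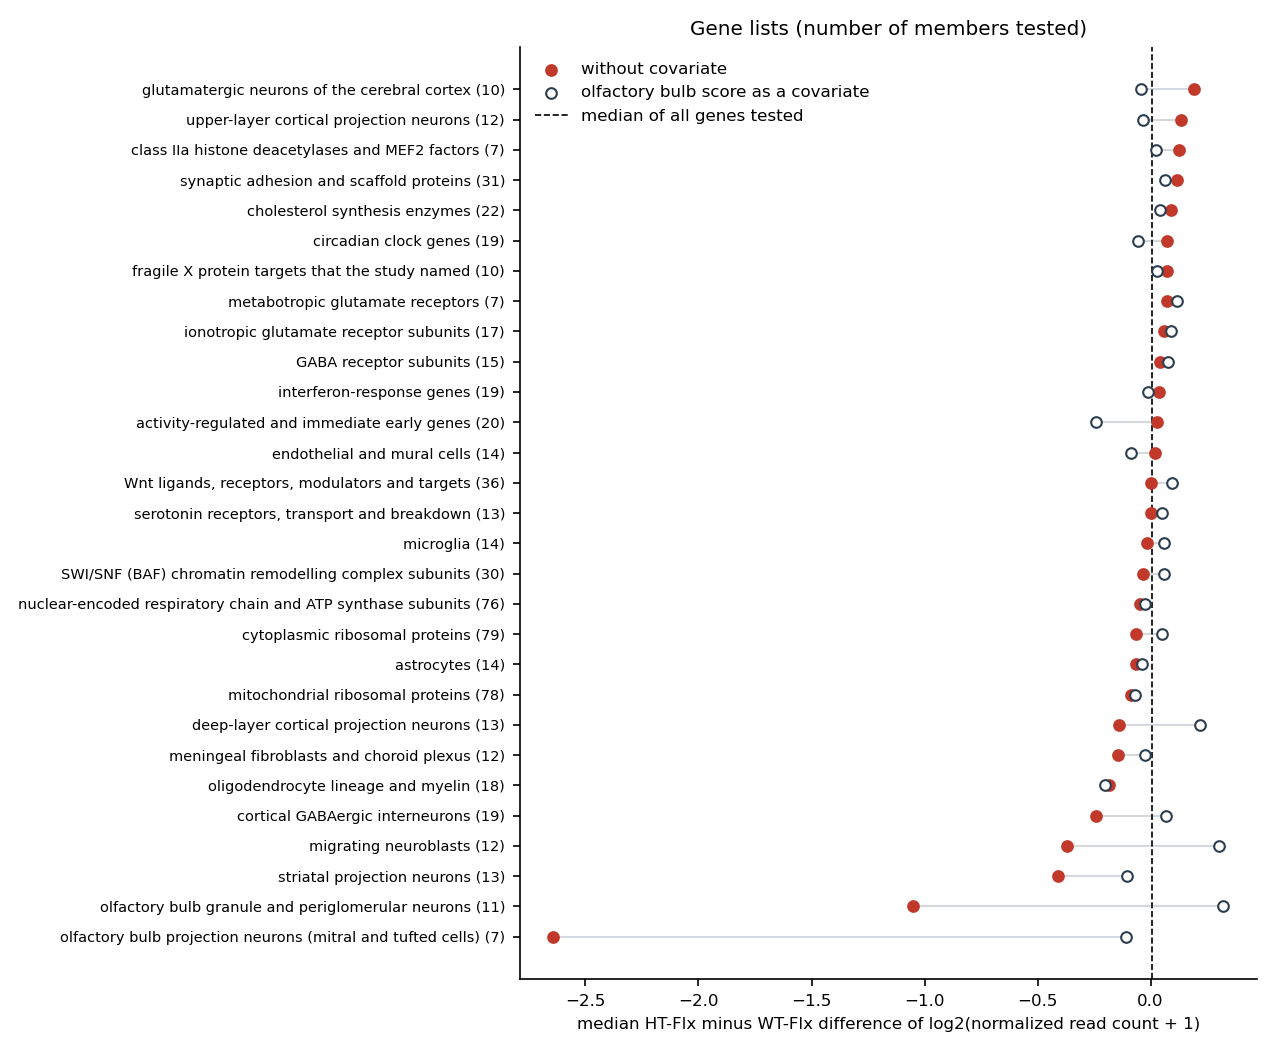
Median HT-Flx minus WT-Flx difference of log2(normalized read count + 1) of each gene list (x axis), with the number of members tested in brackets (y axis). Filled circles are medians without a covariate, open circles with the bulb score included as covariate, and the dashed line is the median of all genes tested, 0.0081. The bulb projection neuron list moves from -2.64 to -0.11, a shift that is built in, since 5 of its 7 tested members are genes of the score.

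The vehicle mice were other animals and give the same comparison without the drug. Of 16558 genes tested in both comparisons, 61.9% had the same sign of the HT minus WT difference, and of the 1734 genes with an unadjusted p under 0.05 in fluoxetine mice, 75.8% did. WT-Veh replicate 1 and HT-Veh replicate 4 had bulb scores of 9.47 and 7.76, against 4.57 to 5.16 in the other vehicle mice, and the part of the bulb score in this share was not tested. Of 109 genes with an unadjusted p under 0.05 in both, 98 had the same sign. Only 3 genes passed in the vehicle mice, 0.0178% of those tested, namely Rspo1, Ccdc3 and Fam220a. Rspo1 was at 141, 109, 159 and 85.6 in HT-Flx and 223, 169.8, 271 and 85.3 in WT-Flx, where the groups overlapped.

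The genotype differences with and without fluoxetine were compared with a test of the difference itself. None of 17567 genes passed (limma, smallest adjusted p = 0.596), and 754 genes, 4.29%, had an unadjusted p under 0.05. The 2 genes with the smallest p were Pfdn2 and AC123659.1. The Pfdn2 genotype difference was -0.54 in fluoxetine and 0.05 in vehicle mice, an interaction of -0.59 ± 0.11 on the log2 scale (adjusted p = 0.596). AC123659.1 was listed at 0 in all HT-Flx and in all WT-Veh mice, as given above. No gene was thus shown to differ in its genotype difference with the drug.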

How the data were processed

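Poly(A)-selected RNA of mPFC was sequenced in 16 mice (TruSeq stranded mRNA libraries), of which 8 enter the main comparison. The authors ran Salmon 1.1.0 (quasi-mapping, GC bias corrected) on GRCm38 transcripts, used tximport for gene sums and then DESeq2 1.30.1 for normalization. The deposited signal is this normalized read count, which is not whole, so raw counts and depth are unknown and count models were not run. Of 18424 genes in the table, 18411 matched GENCODE M21, which served for names, positions and sequences.

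Values were transformed to log2(value + 1). Genes with at least 10 in at least 4 samples were tested with limma 3.58.1 (trended empirical Bayes, R 4.3.3) on HT-Flx and WT-Flx alone, with Benjamini-Hochberg adjustment. Genotype differences with and without the drug were compared with an interaction term over 16 samples. Words of 31 bases were counted with Python 3.11.15. The script was tested on simulated data.

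Named genes were Arid1b, all called genes, the 10 protein-coding genes higher and the 10 lower with the smallest p, a mean of at least 100 and no overlap, up to 4 members per list, non-overlapping genes within 5 Mb of Arid1b, the 5 higher and 5 lower in the bulb covariate fit, and the 2 with the smallest interaction p. One gene in each of the protein-coding sets and 1 sequence are not reported here. Members and lists were chosen with earlier results of these data known. Alternatives changed the pseudocount, filter, scaling, samples and covariates. Some 31-mer, vehicle and left-out-sample alternatives were chosen after seeing the data.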

Additional observations from a re-analysis of the deposited data

Results flagged for a closer look

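In groups of 4 mice, a value was taken as standing apart where its gap to the nearest other mouse exceeded Dixon's 95% critical value of 0.829 of the group's range. Of 106 groups tested 7 met this, and chance gives about 1 in 20. Arid1b in HT-Flx replicate 4 was 1545 against 1661 to 1671 in the other HT-Flx mice. Gm48583 in WT-Flx replicate 4 was 15.9 against 25.7 to 28.1, and Rps6ka2 in WT-Flx replicate 1 was 1875 against 2152 to 2183, all in normalized read counts. The mean log2(normalized read count + 1) of the list of targets of the fragile X protein was 11.93 in WT-Flx replicate 1 against 12.09 to 12.11, and that of the synaptic adhesion and scaffold genes was 11.73 in the same mouse against 11.84 to 11.86. The mean of the Wnt list in HT-Flx replicate 4 was 8.40 against 8.48 in the other HT-Flx mice. The olfactory bulb score in HT-Flx replicate 3 was 4.45 against 5.02 to 5.13.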

How the results depend on the processing

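The 7 calls between HT-Flx and WT-Flx depended on the settings. There were 4 calls with a pseudocount of 0.1, 4 after quantile normalization, 4 with all 4 groups in the fit and 14 with sample quality weights. No gene passed (0 calls) with a mean of at least 100, among protein-coding genes alone, with the bulb score as a covariate in 2 or in 4 groups, without WT-Flx replicates 1 and 4, without replicates 2 and 4, or among genes sharing under 50% of their 31-base words. The last 2 were chosen after seeing the data. At an unadjusted p under 0.05 these fits gave 1443, 1574, 362, 1203, 1249, 1032 and 1635 genes. The filter on a mean of 100 removed the 4 genes listed at 0 in HT-Flx, and the protein-coding filter removed 6 of the 7. The limit on shared words removed all 7. The loss of these genes in those fits was fixed in advance. With a pseudocount of 8 there were 6 calls, without the filter 7 and with upper-quartile rescaling 9. Upper-quartile rescaling put 44.3% of the genes with an unadjusted p under 0.05 on the higher side, against 53.4% as deposited. Leaving out 1 mouse gave 0 to 23 calls, 0 without WT-Flx replicate 1, 2 or 4 and 23 without WT-Flx replicate 3. The Arid1b difference ranged from -0.45 to -0.34 over the same fits. In every fit that left out a WT-Flx mouse, alone or in a pair, the 4 genes listed at 0 in HT-Flx fell below the filter.

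Same-numbered mice did not deviate together (r from -0.026 to 0.092), so the numbers were not taken as pairs. With the replicate number as a block there were 5 calls, 4 of them among the 7. The block gave 0 calls for the difference between drug and vehicle, and 0 calls in vehicle mice, where the fit without it gave 3 and the bulb score as a covariate 19 (both chosen after seeing the data). The cause was not tested. Leaving out 1 mouse gave 0 calls for the difference between drug and vehicle.

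Of 737 alternatives for named genes, 659 kept direction and side of the threshold, 63 lost the call, 11 gained one and 4 turned. Ptpro turned from -1.18 to 0.74 with the bulb score as a covariate and to 0.42 with all 4 groups as well. Dpysl5 turned from 0.074 to -0.027 without WT-Flx replicate 1 and to -0.080 without replicate 3, and ranged up to 0.30 without replicate 4. Of 360 alternatives for list medians, 22 moved by more than the spread between mice. Depth is unknown, so differences in genes of low values could not be judged against counting error.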
